A study of Homo sapiens with 12 samples.

Results

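The NF-κB group examined here held 10 of the 770 genes of the nCounter PanCancer Pathway Panel. It was chosen by name, with no threshold on a measured value, as the NF-κB subunits NFKB1 and RELA, the IκB kinase (IKK) genes CHUK, IKBKB and IKBKG, the inhibitors NFKBIA, NFKBIZ, TNFAIP3 and CYLD, and BIRC3. All 10 were on the panel, and all passed the filter of a mean count of at least 10 over the 12 libraries. The RNA came from 2 androgen-independent human prostate carcinoma lines, DU 145 from a brain metastasis and PC-3 from a bone metastasis, grown in EMEM and in F-12K medium. In each line there were 3 replicate libraries of cells that received 16 µM MS13 for 24 h, and 3 of control cells that received medium with DMSO, the solvent of the compound. MS13 is a diarylpentanoid, a shortened analogue of the plant phenol curcumin. The 4 groups were thus DU 145 MS13, DU 145 control, PC-3 MS13 and PC-3 control. Each line stands for 1 tumour, and the lines differ in culture medium as well as in origin, which cannot be told apart.

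NF-κB is a family of transcription factors that is held in the cytoplasm by inhibitor proteins. NFKB1 encodes the precursor of the p50 subunit, and RELA encodes p65, the subunit that carries the activation domain of the common heterodimer. On stimulation by cytokines or Toll-like receptors the IKK complex, made of the kinases IKKα (CHUK) and IKKβ (IKBKB) and the scaffold NEMO (IKBKG), phosphorylates the inhibitor IκBα (NFKBIA), which is degraded and releases the dimer. Several NF-κB targets then act back on the pathway. NFKBIA restores IκBα, TNFAIP3 encodes the ubiquitin-editing enzyme A20, BIRC3 encodes the ubiquitin ligase cIAP2, and NFKBIZ encodes a nuclear IκB protein that alters which targets respond. CYLD is a deubiquitinase that removes the ubiquitin chains on which IKK is activated. The panel reports transcripts, so neither the phosphorylation nor the location of these proteins was measured.

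The promoters of the feedback genes are shown because NFKBIA, TNFAIP3 and BIRC3 are classical targets of the pathway they regulate and CYLD had the largest rise after MS13 in both lines. The sequences are RefSeq windows (GRCh38.p14) of 250 bases before and 50 bases after the start of each gene, given 5′ to 3′ on the strand of the gene, with matches to GGNNTTTCC, a form of the κB motif bound by RELA, in capitals. Both strands were searched, so a match on the other strand stands in capitals as its reverse complement. The windows are NFKBIA at chr14:35404700-35404999 on the minus strand, TNFAIP3 at chr6:137867009-137867308, BIRC3 at chr11:102317234-102317533 and CYLD at chr16:50742165-50742464, the last 3 on the plus strand.
NFKBIA: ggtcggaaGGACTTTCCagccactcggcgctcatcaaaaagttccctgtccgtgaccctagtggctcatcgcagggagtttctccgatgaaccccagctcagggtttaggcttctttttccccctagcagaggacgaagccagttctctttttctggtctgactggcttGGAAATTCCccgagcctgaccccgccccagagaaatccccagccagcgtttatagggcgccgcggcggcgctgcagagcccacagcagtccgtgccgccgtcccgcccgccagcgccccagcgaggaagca
TNFAIP3: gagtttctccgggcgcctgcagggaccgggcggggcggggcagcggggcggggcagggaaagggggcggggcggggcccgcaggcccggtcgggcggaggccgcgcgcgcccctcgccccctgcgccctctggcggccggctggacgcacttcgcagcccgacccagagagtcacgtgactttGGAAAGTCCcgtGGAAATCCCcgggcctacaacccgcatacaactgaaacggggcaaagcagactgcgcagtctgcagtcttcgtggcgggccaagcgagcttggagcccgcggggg
BIRC3: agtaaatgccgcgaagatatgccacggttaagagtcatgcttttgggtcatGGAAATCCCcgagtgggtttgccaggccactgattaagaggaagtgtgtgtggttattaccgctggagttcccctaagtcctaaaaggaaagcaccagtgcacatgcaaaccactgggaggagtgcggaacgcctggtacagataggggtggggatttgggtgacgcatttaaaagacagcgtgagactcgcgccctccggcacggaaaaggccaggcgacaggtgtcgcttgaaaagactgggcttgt
CYLD: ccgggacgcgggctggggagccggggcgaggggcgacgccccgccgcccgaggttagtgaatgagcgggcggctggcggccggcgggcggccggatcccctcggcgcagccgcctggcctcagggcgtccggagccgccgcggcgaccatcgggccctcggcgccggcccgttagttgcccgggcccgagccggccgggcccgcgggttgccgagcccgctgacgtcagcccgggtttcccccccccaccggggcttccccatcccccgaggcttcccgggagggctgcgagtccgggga

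The table held windows for 9 of the 10 members, all but IKBKB, and 4 of the 9 carried the motif. NFKBIA held GGAATTTCC at position -81 from the start site, on the strand opposite to the gene, and GGACTTTCC at -242 on its own strand. TNFAIP3 held GGACTTTCC at -67 and GGGATTTCC at -55, and BIRC3 held GGGATTTCC at -199, all on the opposite strand. NFKBIZ, whose window is not printed, held GGGGTTTCC at -239. The motif was present in 2198 of 35116 promoter windows of the same length, or 6.26%. These letters were chosen after sites in these windows had been seen. The looser GGNNNNNCC, which every match to the narrower form also meets, was in 9 of the 9 member windows and in 78% of all windows. The CYLD window had no match to the narrower form. The 4 genes that held it did not move alike: after MS13 the NFKBIA level fell in DU 145 cells and rose in PC-3 cells, TNFAIP3 rose in PC-3 cells, NFKBIZ rose in both lines and BIRC3 fell in both.

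The libraries held 508284 to 604629 counts on panel genes in DU 145 MS13, 482298 to 560157 in DU 145 control, 437471 to 495514 in PC-3 MS13 and 543954 to 587294 in PC-3 control. Levels below are scaled counts, meaning counts divided by a library factor from 40 housekeeping genes, and they are not compared between genes because probes differ in efficiency. Between PC-3 control replicates 2 and 3 no difference beyond counting noise was detected, and they were counted as 1 sample, so n was 2 in that group and 3 in the others. PC-3 MS13 replicate 3 stood furthest from its own group, and leaving it out changed 2 member calls, which are named below with IKBKG and NFKB1. A group mean was taken as measured above a limit of 20.4 to 34.1 scaled counts, set by the negative control probes. The 2 leukocyte and 4 stromal markers on the panel lay below the limit in all 4 groups, and the 4 epithelial markers lay above it. The epithelial markers summed to 1897 to 2009 scaled counts in DU 145 MS13, against 3198 to 3259 in DU 145 control, and to 2982 to 3162 in PC-3 MS13, against 4422 to 4546 in PC-3 control libraries. The sum was lower after MS13 in both lines, with 3 of the 4 lower and 1 higher in DU 145 cells and 3 of the 4 lower in PC-3 cells, and the part of this shift in the results below was not tested. The geometric mean of the raw housekeeping counts was 1.27-fold higher in DU 145 MS13 than in control cells, against 1.05-fold for the positive control probes, and 0.864-fold in PC-3 cells, against 0.907-fold. The scaling therefore sets the zero point in DU 145 cells: the median log2 fold change of the 684 genes tested was -0.34 with housekeeping genes, -0.015 with TMM (a trimmed mean over all genes) and -0.065 with the positive control probes. In PC-3 cells these medians were -0.086, -0.061 and -0.16. Because the RNA came from whole cultures, fewer expressing cells and less RNA per cell cannot be told apart.

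In DU 145 cells MS13 lowered NFKB1, IKBKB, IKBKG, NFKBIA and BIRC3 and raised RELA, NFKBIZ and CYLD, while PC-3 cells had less NFKB1, IKBKB and BIRC3 and more IKBKG, NFKBIA, NFKBIZ, TNFAIP3 and CYLD. Of the 10 members, 3 rose in DU 145 cells (19.0% of all genes tested) and 5 fell (47.1%), at an adjusted p of 0.05 in edgeR's quasi-likelihood test. In PC-3 cells 5 rose (21.9%) and 3 fell (36.8%). A change of at least 2-fold was also met by 2 rising members (8.77%) and 3 falling members (20.8%) in DU 145 cells, and by 1 rising (6.58%) and 1 falling (13.7%) in PC-3 cells. The falling one in PC-3 cells was BIRC3, whose MS13 level lay below the limit, so its fold is only bounded, and the count was 0 with TMM, without PC-3 control replicate 2 and without PC-3 MS13 replicate 3. The members that passed in the same direction in both lines were NFKBIZ and CYLD upward and NFKB1, IKBKB and BIRC3 downward. NFKBIA and IKBKG passed in opposite directions. With TMM or the positive control probes, 5 members rose and 4 fell in DU 145 cells, and none of the falling ones reached 2-fold. Counting both directions, 8 of 10 members passed in each line, where 66.1% of all genes tested did so for DU 145 and 58.8% for PC-3. The members' median log2 fold change was -0.096 (DU 145) and 0.12 (PC-3), beside -0.34 and -0.086 over all genes tested.

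**Figure D1:**
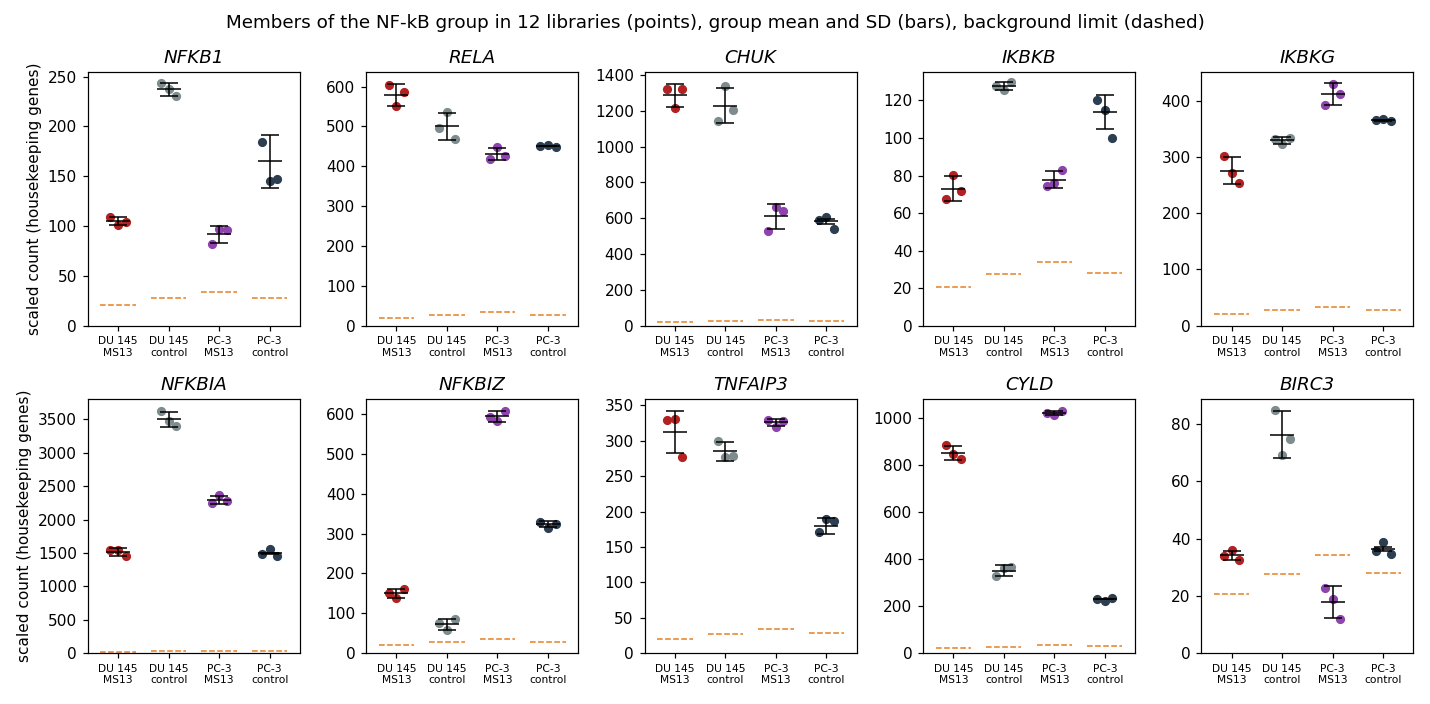
Scaled counts of the 10 members in each library (points, linear axis from 0), with group mean and SD as black bars (n = 2 in PC-3 control, 3 elsewhere) and the negative-probe limit dashed, for DU 145 MS13, DU 145 control, PC-3 MS13 and PC-3 control cells. NFKBIA is lower in MS13 than in control libraries of DU 145 and higher in those of PC-3, CYLD is higher in both, and the PC-3 MS13 mean of BIRC3 lies below the limit.

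Among the subunits, NFKB1 fell in both lines, while RELA rose in DU 145 cells by an amount that depended on the scaling. NFKB1 stood at 109, 101 and 104 scaled counts in the DU 145 MS13 libraries, against 243, 238 and 230 in the DU 145 control libraries. In PC-3 cells it stood at 81.9, 97.3 and 95.8 after MS13, against 184, 145 and 147 in control. The MS13 and control libraries did not overlap in either line, and the PC-3 control libraries were the most spread. The log2 fold change was -1.17 (SE 0.095, adjusted p = 4.4e-19) in DU 145 and -0.80 (SE 0.12, adjusted p = 1.95e-08) in PC-3 cells. RELA stood at 604, 550 and 586 in DU 145 MS13 libraries, against 497, 536 and 468 in control, a log2 fold change of 0.22 (SE 0.057, adjusted p = 0.000597). It was 0.55 with TMM (adjusted p = 1.98e-14) and 0.49 with the positive control probes (adjusted p = 6.85e-11). In PC-3 cells RELA stood at 419, 449 and 427 after MS13, against 452, 454 and 448 in control. The RELA libraries were apart in DU 145 and overlapped in PC-3 cells, where the difference did not pass (log2 fold change -0.063, 95% interval -0.20 to 0.076, adjusted p = 0.47).

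Of the IKK genes, IKBKB fell in both lines, CHUK did not pass in either, and IKBKG moved by small amounts that depended on the scaling. IKBKB, the kinase of the canonical pathway, stood at 67.3, 80.0 and 71.8 in DU 145 MS13 libraries, against 128, 126 and 130 in control. In PC-3 cells it stood at 74.6, 76.2 and 82.7 after MS13, against 120.4, 115 and 100.2 in control. The groups did not overlap, and the log2 fold changes were -0.81 (SE 0.12, adjusted p = 2.12e-09) in DU 145 and -0.53 (SE 0.13, adjusted p = 0.000375) in PC-3 cells. With TMM the DU 145 value of IKBKB was -0.48 (adjusted p = 8.48e-05). CHUK, which also serves the non-canonical branch, stood at 1324, 1214 and 1324 in DU 145 MS13 libraries, against 1142, 1336 and 1205 in control, and at 531, 661 and 643 in PC-3 MS13 libraries, against 591, 606 and 543 in control. These ranges overlapped, and the log2 fold changes were 0.069 in DU 145 cells (95% interval -0.028 to 0.17, adjusted p = 0.216) and 0.076 in PC-3 cells (95% interval -0.061 to 0.21, adjusted p = 0.369). In DU 145 cells CHUK passed with TMM (0.40, adjusted p = 8.43e-12), with the positive control probes (0.35, adjusted p = 7.94e-08) and without control replicate 2 (0.14, adjusted p = 0.0209), and in PC-3 cells without MS13 replicate 1 (0.17, adjusted p = 0.0309).

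IKBKG stood at 301, 271 and 253 in DU 145 MS13 libraries, against 332, 322 and 334 in control, and at 392, 430.1 and 412 in PC-3 MS13 libraries, against 366, 367 and 363 in control. The MS13 and control libraries of IKBKG were apart in both lines. It was lower after MS13 in DU 145 cells (log2 fold change -0.26, SE 0.071, adjusted p = 0.000915) and higher in PC-3 cells (0.17, SE 0.073, adjusted p = 0.0349). With TMM or the positive control probes the DU 145 value was 0.069 (adjusted p = 0.427) or 0.018 (adjusted p = 0.867). The PC-3 call was lost with DESeq2 (adjusted p = 0.119), with the positive control probes (adjusted p = 0.289), and without PC-3 MS13 replicate 2 (adjusted p = 0.14) or 3 (adjusted p = 0.0521) or any 1 PC-3 control replicate (adjusted p 0.0506 to 0.0655). IKBKG also has a nearly identical partial copy on the X chromosome, and whether its probe also binds transcripts of that copy is not known here.

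The inhibitor IκBα gave the clearest difference between the lines. NFKBIA stood at 1545, 1542 and 1447 in DU 145 MS13 libraries, against 3623, 3479 and 3398 in control. In PC-3 cells it stood at 2245, 2360 and 2277 after MS13, against 1485, 1554 and 1448 in control. Every MS13 library lay below every control library in DU 145 cells and above every control library in PC-3 cells. NFKBIA averaged 1511 ± 55.7 in DU 145 MS13 and 3500 ± 114 in DU 145 control cells (SD, n = 3 each). It averaged 2294 ± 59.4 in PC-3 MS13 (n = 3) and 1492 ± 9.73 in PC-3 control cells (n = 2). The control libraries at 1554 and 1448 were added into 1 value, so that SD is narrower than the spread of the libraries. The log2 fold change was -1.21 (SE 0.038, adjusted p = 1.78e-43) in DU 145 and 0.62 (SE 0.045, adjusted p = 3.52e-21) in PC-3 cells. Over 22 alternative settings the DU 145 value ran between -1.27 and -0.88 and the PC-3 value between 0.55 and 0.65, and both passed in all of them.

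NFKBIZ and CYLD rose in both lines. NFKBIZ stood at 151, 138 and 160.5 in DU 145 MS13 libraries, against 75.2, 56.6 and 84.8 in control. It stood at 594, 581 and 608 in PC-3 MS13 libraries, against 330.1, 314 and 325 in control. Without overlap in either line, the log2 fold change was 1.07 (SE 0.12, adjusted p = 2.68e-13) in DU 145 and 0.88 (SE 0.072, adjusted p = 9.61e-19) in PC-3 cells. CYLD stood at 885, 845 and 826 in DU 145 MS13 libraries, against 326, 361 and 366 in control, and at 1023, 1013 and 1029 in PC-3 MS13 libraries, against 229, 223 and 235 in control. These were the largest rises of the group, with a log2 fold change of 1.28 (SE 0.057, adjusted p = 5.16e-34) in DU 145 and 2.16 (SE 0.067, adjusted p = 4.93e-44) in PC-3 cells. Across the alternatives the CYLD value ran between 1.21 and 1.61 for DU 145 and between 2.09 and 2.24 for PC-3.

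TNFAIP3, the gene of A20, rose in PC-3 cells. It stood at 329.8, 319.9 and 328 in PC-3 MS13 libraries, against 172, 189 and 187 in control, with no overlap and a log2 fold change of 0.84 (SE 0.089, adjusted p = 1.41e-13). In DU 145 cells it stood at 329.6, 330.2 and 277 after MS13, against 299.7, 276 and 278 in control, and MS13 replicate 3 lay among the control libraries. The difference there did not pass (log2 fold change 0.13, 95% interval -0.015 to 0.28, adjusted p = 0.112), but it did without that library (0.21, adjusted p = 0.00964), with TMM (0.46, adjusted p = 1.16e-08) and with the positive control probes (0.41, adjusted p = 1.84e-06).

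BIRC3 fell in both lines, with low counts in PC-3 cells. It stood at 34.0, 35.9 and 32.6 in DU 145 MS13 libraries, against 85.0, 69.1 and 74.8 in control, a log2 fold change of -1.16 (SE 0.16, adjusted p = 6.6e-10). In PC-3 cells it stood at 22.9, 18.8 and 11.8 after MS13, against 35.7, 38.7 and 34.8 in control. No BIRC3 library overlapped between MS13 and control in either line. The PC-3 MS13 mean, 17.8 ± 5.59 (n = 3), lay below the limit of 34.1, and the control mean of 36.2 was just above its own limit of 28.0. BIRC3 in PC-3 cells was thus at least 1.06-fold lower after MS13, with a fitted log2 fold change of -1.01 (SE 0.25, adjusted p = 0.000264) that is no bound.

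**Figure D2:**
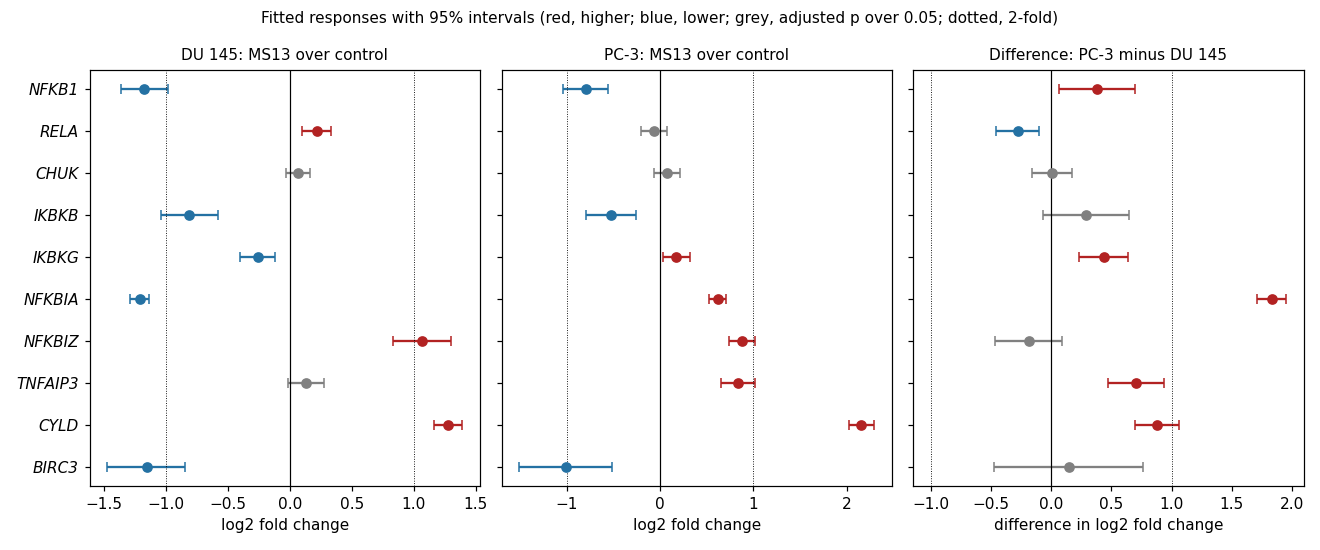
Fitted log2 fold change of each member after MS13 with its 95% interval, in each line (left, middle), and the difference of the responses, PC-3 minus DU 145 (right), from edgeR. Red points passed upward, blue downward and grey not at all. NFKBIA lies at -1.21 for DU 145, at 0.62 for PC-3 and at 1.83 for the difference.

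Whether the lines responded differently was tested as the interaction of treatment and line, PC-3 minus DU 145. Of the 10 members, 5 had a higher response in PC-3 cells (32.0% of genes tested) and 1 a lower one (18.0%). The difference was 1.83 for NFKBIA (SE 0.060, adjusted p = 1.06e-41), the one member past 2-fold (10.7% of genes tested upward). It was 0.88 for CYLD (SE 0.092, adjusted p = 1.78e-13), 0.71 for TNFAIP3 (SE 0.12, adjusted p = 2.88e-07) and -0.28 for RELA (SE 0.090, adjusted p = 0.00708). These 4 passed in all 21 alternatives, in which NFKBIA ran between 1.49 and 1.89 and CYLD between 0.53 and 0.94. The RELA difference was -0.58 under TMM and -0.63 under the positive control probes. IKBKG differed by 0.43 (SE 0.10, adjusted p = 0.000217), which was lost with TMM (0.13, adjusted p = 0.313) and with the positive control probes (0.086, adjusted p = 0.574). NFKB1 differed by 0.38 (SE 0.16, adjusted p = 0.0409), a call lost with DESeq2 (0.35, adjusted p = 0.136), TMM (0.073, adjusted p = 0.741), the positive control probes (0.025, adjusted p = 0.913) and background subtraction (0.32, adjusted p = 0.19). It was also lost without DU 145 MS13 replicate 2, DU 145 control replicate 1, or replicate 2 or 3 of PC-3 MS13 or of PC-3 control (0.33 to 0.37, adjusted p 0.0513 to 0.11). NFKBIZ, IKBKB, CHUK and BIRC3 did not pass. NFKBIZ differed by -0.19 (adjusted p = 0.274), but by -0.49 with TMM (adjusted p = 0.00196), and CHUK by 0.0074 (adjusted p = 0.943), but by -0.30 with TMM (adjusted p = 0.00269).

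**Figure D3:**
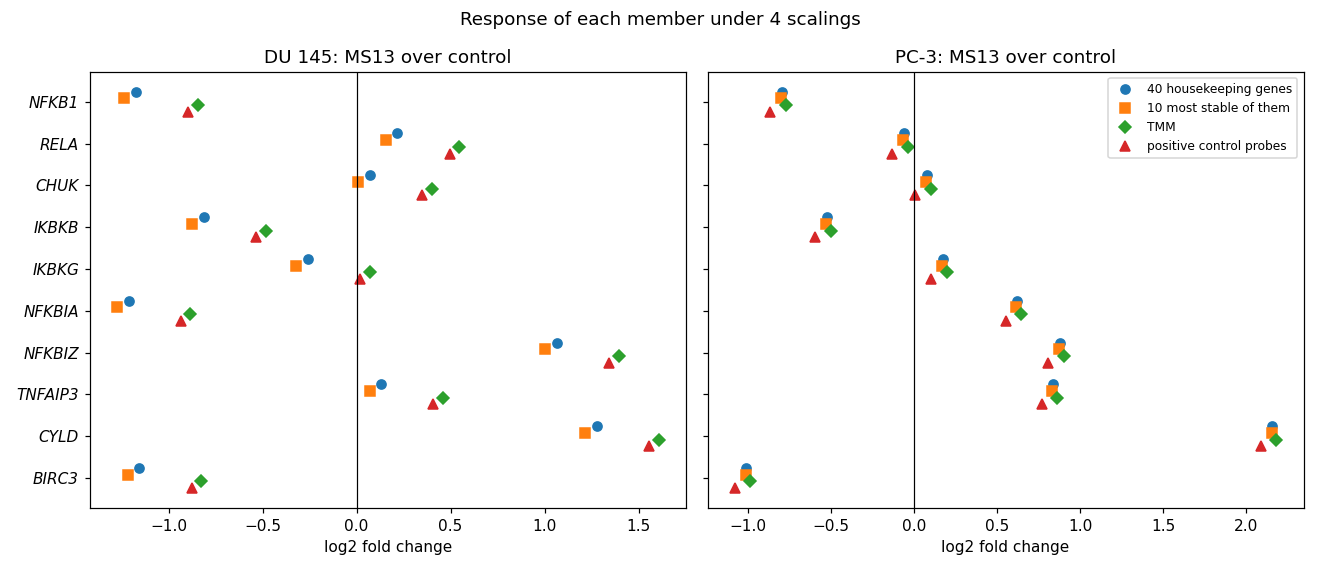
Log2 fold change of each member after MS13, by line, under 4 scalings: 40 housekeeping genes, the 10 most stable of them, TMM and the positive control probes. In DU 145 cells IKBKG is -0.26 with the housekeeping genes and 0.069 with TMM, while NFKBIA stays below 0 in DU 145 and above 0 in PC-3 cells under each.

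The lines differed in these genes before treatment. In PC-3 control against DU 145 control cells, 1 member was higher (36.0% of genes tested) and 7 were lower (31.0%). CHUK averaged 582 ± 12.5 in PC-3 control (n = 2) and 1228 ± 98.8 in DU 145 control cells (n = 3), a log2 fold change of -1.08 (adjusted p = 6.39e-28). Other log2 differences were -1.23 for NFKBIA (adjusted p = 2.36e-40), -1.06 for BIRC3 (adjusted p = 4.6e-08), -0.64 for TNFAIP3 (adjusted p = 9.48e-10), -0.62 for CYLD (adjusted p = 4.64e-11) and -0.57 for NFKB1 (adjusted p = 1.45e-07). NFKBIZ was the member higher in PC-3 cells, at 325 ± 7.66 in PC-3 control and 72.2 ± 14.3 in DU 145 control cells (log2 fold change 2.17, adjusted p = 1.86e-31). The seventh lower member, RELA, stood at -0.15 (adjusted p = 0.0359) and lost its call under DESeq2 (adjusted p = 0.11), without DU 145 control replicate 2 (-0.095, adjusted p = 0.23) and without any 1 PC-3 control replicate (adjusted p 0.0515 to 0.0687).

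After MS13 the order of the lines had changed for some members. In PC-3 MS13 against DU 145 MS13 cells, 4 members were higher (48.4%) and 3 were lower (25.6%). BIRC3 was among the lower, but its PC-3 MS13 mean lay below the limit of 34.12. Its DU 145 MS13 mean was 34.15, so the bound is 1-fold and no difference is bounded. NFKBIA, lower in PC-3 than in DU 145 control cells, was higher in PC-3 MS13 than in DU 145 MS13 cells (log2 fold change 0.60, adjusted p = 3.19e-23). The size of this NFKBIA difference depended on the scaling. It was 0.23 with TMM, 0.17 with the positive control probes and 0.88 with the 10 most stable housekeeping genes. TNFAIP3 averaged 326 ± 5.32 in PC-3 MS13 and 312 ± 30.3 in DU 145 MS13 cells (n = 3 each), which did not pass (0.066, adjusted p = 0.423), although it was lower in PC-3 MS13 cells with TMM (-0.31, adjusted p = 9.48e-05) and under the positive control probes (-0.37, adjusted p = 1.88e-05), and higher with the 10 most stable housekeeping genes (0.34, adjusted p = 5.1e-05). CYLD averaged 1022 ± 8.52 and 852 ± 30.1 in the same groups (0.26, adjusted p = 1.54e-06), but its sign turned with TMM (-0.11, adjusted p = 0.0444). CHUK kept its difference (-1.08, adjusted p = 1.73e-29), and so did NFKBIZ (1.98, adjusted p = 3.63e-38). The comparisons within and between lines share groups, so these values are not independent of those above.

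Of the other genes of the pathway on lists held for it, none of the 6 further NF-κB and IκB family genes looked up was in the file. Of the ligands, receptors and adaptors upstream of IKK, 16 of 35 were in the file and 15 were tested. After MS13, 5 were higher and 2 lower in DU 145 cells, beside 19.0% and 47.1% of all genes tested. In PC-3 cells 6 were higher and 4 lower, beside 21.9% and 36.8%. Their median log2 fold changes were 0.0095 and 0.068, beside -0.34 and -0.086 over all genes tested. Of the 16 genes, 6 lay below the limit in both DU 145 groups and 4 in both PC-3 groups. Some called genes lay below it in a single group of a line, such as IRAK3 in DU 145 MS13 and IL1A in PC-3 control cells. IRAK2, a kinase of interleukin-1 and Toll-like receptor signalling, averaged 501 ± 39.9 in DU 145 MS13 and 210.4 ± 11.8 in control cells (log2 fold change 1.25, SE 0.071, adjusted p = 2.7e-27). It rose by 0.39 in PC-3 cells (adjusted p = 2.1e-05). IL1RAP, the accessory chain of the interleukin-1 receptor, rose by 0.99 in DU 145 (adjusted p = 3.18e-21) and by 1.25 in PC-3 cells (adjusted p = 8.36e-19). TNFRSF10B, a death receptor for TRAIL, rose by 0.95 in DU 145 cells (adjusted p = 7.85e-23), and averaged 224.7 ± 14.1 in PC-3 MS13 and 174.8 ± 21.7 in PC-3 control cells. TRAF7, a ubiquitin ligase, fell by 1.06 in DU 145 (adjusted p = 5.99e-26) and by 0.74 in PC-3 cells (adjusted p = 4.92e-14). The cytokine gene IL1B averaged 134 ± 8.53 in PC-3 MS13 and 272 ± 38.4 in PC-3 control cells (-1.06, adjusted p = 1.17e-15) and lay below the limit in both DU 145 groups. MYD88, the adaptor of those receptors, averaged 488 ± 28.7 in PC-3 MS13 and 682 ± 39.8 in control cells (-0.47, adjusted p = 8.42e-10), and 228 ± 14.9 in DU 145 MS13 and 196 ± 13.8 in control cells (0.22, adjusted p = 0.0183), a difference in response of -0.69 (adjusted p = 5.16e-08). With TMM the DU 145 value of MYD88 was 0.55.

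Of the kinases and scaffolds that feed IKK, 8 of 19 were in the file and 7 were tested. In DU 145 cells 1 was higher and 6 lower, beside 19.0% and 47.1% of all genes tested. In PC-3 cells 1 was higher and 4 lower, beside 21.9% and 36.8%. Their median log2 fold changes were -0.82 and -0.55, beside -0.34 and -0.086 over all genes tested. Of the 8 genes, 2 lay below the limit in both groups of each line. AKT1 averaged 1096 ± 25.5 in DU 145 MS13 and 2469 ± 34.7 in control cells (-1.17, adjusted p = 1.77e-41), and fell by 1.25 in PC-3 cells (adjusted p = 2.15e-40). AKT2 fell by 0.66 in DU 145 (adjusted p = 2.55e-19) and by 0.55 in PC-3 cells (adjusted p = 9.58e-13). PRKCA, a protein kinase C, fell by 1.16 in DU 145 (adjusted p = 1.69e-14) and by 1.11 in PC-3 cells (adjusted p = 1.6e-11). MAP3K8, a kinase that binds the NFKB1 product, was the one that rose, by 1.40 in DU 145 (adjusted p = 8.2e-15) and by 1.44 in PC-3 cells (adjusted p = 9.4e-14). MAP3K14, the NIK kinase of the non-canonical branch, averaged 182 ± 9.66 in PC-3 MS13 and 182 ± 0.78 in PC-3 control cells (-0.0045, adjusted p = 0.966), against 236 ± 14.3 in DU 145 MS13 and 416 ± 11.7 in DU 145 control cells (-0.82, adjusted p = 3.5e-18). Its response, PC-3 minus DU 145, differed by 0.82 (adjusted p = 1.9e-08). With TMM the DU 145 values were -0.33 for AKT2 and -0.49 for MAP3K14.

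NF-κB target genes outside the pathway moved in both directions, as did all genes tested. All 16 of the 26 listed genes that were in the file were tested. In DU 145 cells 3 were higher and 9 lower, beside 19.0% and 47.1% of all genes tested. In PC-3 cells 6 were higher and 6 lower, beside 21.9% and 36.8%. Their median log2 fold changes were -0.51 and -0.13, beside -0.34 and -0.086 over all genes tested. With TMM the DU 145 split of the listed genes was 6 higher and 7 lower. CCR7 and MMP9, among the 6 higher in PC-3 cells, lay below the limit in both PC-3 groups. PLAU, the urokinase gene, averaged 2234 ± 78.8 in DU 145 MS13 and 9129 ± 288 in control cells (-2.03, adjusted p = 7.99e-61), and fell by 2.15 in PC-3 cells (adjusted p = 2.15e-61). GADD45B, a stress-response gene, averaged 2209 ± 111 in PC-3 MS13 and 168 ± 12.2 in PC-3 control cells (3.69, adjusted p = 3.73e-60), and rose by 1.40 in DU 145 cells (adjusted p = 3.01e-40). The chemokine gene IL8 averaged 13370 ± 134 in PC-3 MS13 and 25930 ± 451 in control cells (-0.96, adjusted p = 5.25e-39), and fell by 0.68 in DU 145 cells (adjusted p = 1.1e-24). CCND1, the cyclin D1 gene, fell by 1.23 in PC-3 (adjusted p = 1.27e-42) and by 0.74 in DU 145 cells (adjusted p = 4.12e-25). IL11, a cytokine gene, rose by 1.40 in DU 145 (adjusted p = 2.53e-30) and by 1.90 in PC-3 cells (adjusted p = 3.1e-27). VEGFA, a growth factor gene of vessels, fell by 0.82 in DU 145 cells (adjusted p = 1.4e-33), or by 0.49 with TMM.

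**Figure D4:**
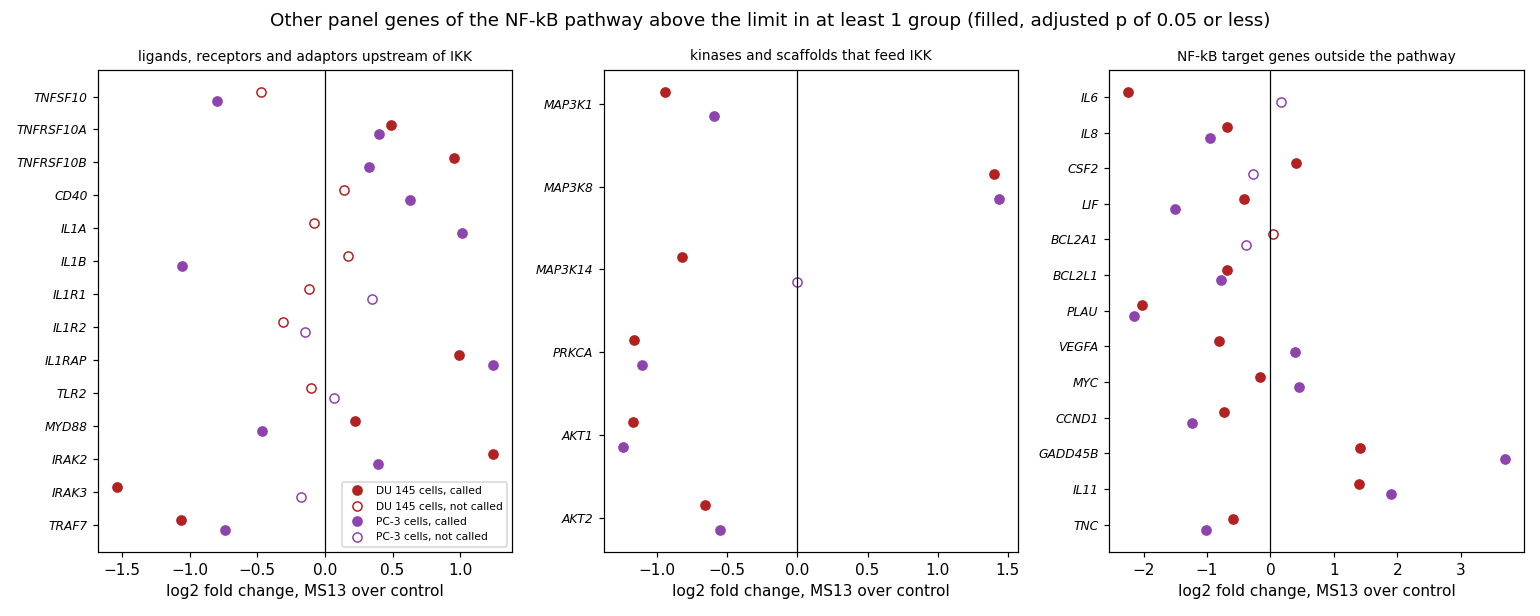
Log2 fold change after MS13 for the tested genes of each pathway list whose mean was above the negative-probe limit in at least 1 of the 4 groups, DU 145 in red and PC-3 in purple, filled where the adjusted p was 0.05 or less. Among the kinases MAP3K8 lies above 0 for both lines, and GADD45B in PC-3 cells lies highest of all genes plotted, at 3.69.

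The genes whose pattern over the 11 samples was most like that of NFKBIA and CYLD were sought among genes with a mean count of at least 50. These were 469 besides the gene itself, and the other members among them were left out of the ranking. For NFKBIA the genes most alike were BNIP3 (Pearson r = 0.977), RPS27A (r = 0.962) and BDNF (r = 0.962) of log2 scaled counts. BDNF averaged 137 ± 6.17 in DU 145 MS13 and 435 ± 28.6 in control cells, and 239 ± 25.5 in PC-3 MS13 and 180 ± 3.2 in control cells. For CYLD they were ZNF143 (r = 0.988), RRAS2 (r = 0.985) and FOS (r = 0.982), of which ZNF143 was itself 1 of the 40 housekeeping genes behind the scaling. ZNF143 averaged 613.8 ± 29.7 in DU 145 MS13 and 333.4 ± 4.34 in control cells, and 720.6 ± 15.5 in PC-3 MS13 and 293.3 ± 18.9 in control cells. The samples share scaling and fall into 4 groups, so these values describe likeness between group means, and no p was computed.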

How the data were processed

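The authors deposited raw nCounter counts per probe (unit: counts, not normalized) for 12 libraries of RNA from RNeasy kits. nSolver 4.0 was the authors' software for their own tests, none of which was used here. Scaling used the geometric mean over 40 housekeeping genes, whose names were taken from the panel's general design, and fitted over all 4 groups with edgeR 4.0.16 (limma 3.58.1, R 4.3.3) by the quasi-likelihood F-test. Genes with a mean count of at least 10 other than housekeeping genes were tested (684), with Benjamini-Hochberg adjustment over all of them, and SE was |log2 fold change| over the root of F. Errors beside means are SD, and in PC-3 control they are over 2 values, 1 of them a sum of libraries. That SD can differ from the spread of the 3 libraries. The limit was the mean plus 2 SD of 8 negative probes per library, averaged in each group, and a group below it gives a bound. PC-3 control replicates 2 and 3, with a chi-square of 1.04 per degree of freedom (p = 0.202) against 1.17 to 2.21 in the other pairs, were added. The methods give 3 independent experiments, but technical wells were run too, so p-values measure the spread between these libraries. The fit draws the spread of each gene toward that of the other genes. SEs, intervals and p-values thus rest partly on genes other than the one tested. On simulated data for the DU 145 comparison (684 genes, 200 changed) the test found 72% of 1.5-fold and 95% of 2-fold changes and 1.03% of unchanged genes. The simulation had 12 separate samples, a fixed spread and unchanged housekeeping genes, so these rates do not cover error from the scaling. Alternatives were DESeq2 1.42.0, TMM, 10 stable housekeeping genes, positive probes, other filters, background subtraction, 12 separate samples, a replicate block, fewer groups in the fit and each library left out. Members and lists were chosen with earlier results of these data known. Named were all members and up to 4 called genes per pathway list and line by adjusted p. Also named were the 3 genes, members left out, most like NFKBIA and CYLD. Some checks of cell line identity and 1 pathway gene are not reported here.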

Additional observations from a re-analysis of the deposited data

Results flagged for a closer look

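The test of the difference in response between the lines, PC-3 minus DU 145 on the log2 scale, marked 6 members. It was 1.83 for NFKBIA, whose level after MS13 was above every control library in 3 of 3 PC-3 libraries and below every control library in 3 of 3 DU 145 libraries. It was 0.88 for CYLD, which rose more in PC-3 cells, and 0.71 for TNFAIP3. It was 0.43 for IKBKG, 0.38 for NFKB1 and -0.28 for RELA, of which IKBKG and NFKB1 lost the call under other scalings. Groups of 2 or 3 samples were not tested for a sample standing apart.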

How the results depend on the processing

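Of 1085 values of single members under 22 alternative settings, 1015 kept their direction and call, 26 lost the call, 19 gained it and 25 turned in sign. These counts include the values between lines under the replicate block, which that setting cannot estimate. Where a value turned or a count moved, the cause was not tested. With TMM and with positive probes, 5 and 5 members rose in DU 145 cells, 3 and 3 had a higher and 3 and 3 a lower response in PC-3 cells, and 6 and 7 were lower in PC-3 MS13 than in DU 145 MS13 cells, with 2 higher under the positive probes and 6 with 10 stable housekeeping genes. Background subtraction gave 2 members with a lower response. In control cells 2 members were higher in PC-3 with 10 stable housekeeping genes and with only the compared groups, and 1 to 2 with each library left out. Over all genes, 130 rose and 322 fell in DU 145 cells, against 196 and 218 with TMM and 181 and 226 with positive probes. The response was higher for 219 and lower for 123, against 110 and 215 with TMM and 94 and 217 with positive probes. Between MS13 groups 331 were higher and 175 lower in PC-3, against 203 and 247, 184 and 257, and 418 and 130 with 10 housekeeping genes. Between control groups 246 were higher and 212 lower, against 304 and 161 with those 10.

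With TMM and with positive probes, sign turned for IKBKG in DU 145 cells (0.069 and 0.018), for the response of CHUK (-0.30 and -0.34), IKBKB (-0.017 and -0.062) and BIRC3 (-0.16 and -0.20), and between MS13 groups for IKBKB (-0.28 and -0.34), TNFAIP3 (-0.31 and -0.37) and CYLD (-0.11 and -0.17). With 10 housekeeping genes it turned between control groups for RELA (0.066) and IKBKB (0.025) and between MS13 groups for NFKB1 (0.076), and with background subtraction for the response of BIRC3 (-1.74). With each library left out, the response ran from -0.058 to 0.10 for CHUK and from -0.071 to 0.35 for BIRC3, and TNFAIP3 between MS13 groups from -0.018 to 0.11. BIRC3 was not tested at a minimum mean of 50.

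The log2 deviations of each library from its group mean were correlated between same-numbered MS13 and control libraries. The values were -0.041 to 0.027 in DU 145 and -0.21 to 0.017 in PC-3 cells. These deviations are largely counting noise in most groups, so weak correlations cannot decide whether replicate numbers pair the libraries. With the replicate block, 128 genes rose and 315 fell in DU 145 cells, and PC-3 cells had 151 higher and 251 lower. No member call changed within a line or in the response. Each block lay within a single line, so values between lines under this setting depend on which replicate is the baseline and are not read.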

Other observations

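IL6, a cytokine gene and NF-κB target chosen after its values were seen, averaged 91.1 ± 13.1 in PC-3 MS13 (n = 3) and 85.1 ± 15.2 in PC-3 control cells (n = 2), which did not pass (log2 fold change 0.17, adjusted p = 0.352). It averaged 39.8 ± 8.49 in DU 145 MS13 and 190.1 ± 7.03 in DU 145 control cells (n = 3 each), a log2 fold change of -2.24 (SE 0.13, adjusted p = 1.52e-27). The responses, PC-3 minus DU 145, differed by 2.41 (adjusted p = 4.71e-18). VEGFA averaged 2417 ± 51.7 in DU 145 MS13 and 4249 ± 193 in DU 145 control cells. It averaged 1374 ± 61.3 in PC-3 MS13 and 1046 ± 3.71 in PC-3 control cells, a direction in each line that also held with TMM (-0.49 and 0.42) and with the positive control probes (-0.54 and 0.33).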
